A study of Mus musculus with 12 samples.

Results

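Translational efficiency (TE) is the amount of ribosome footprint on an mRNA relative to the amount of that mRNA. Its change after dTAG-13 was measured in the wild-type cells of a mouse embryonic stem cell line, ES-E14TG2a, whose release factor eRF1 carries a dTAG degron. dTAG-13 marks proteins with this tag for destruction by the proteasome. The change of a gene is the log2 footprint difference, treated minus untreated, less the log2 RNA difference. It could be formed only for wild type, where both assays were sequenced, and it used 8 of the 12 libraries of the series. These were 2 untreated and 2 treated footprint libraries and 2 untreated and 2 treated poly(A) RNA libraries, each pair being biological replicates A and B. The 4 footprint libraries of Gcn2 knockout cells with the same tagged eRF1, 2 untreated and 2 treated, serve only as a separate reading of footprints at the end. Treated cells had received 500 nM dTAG-13 for 1 h. All wild-type cells, untreated ones included, carried the tag, and the medium held LIF and the 2i inhibitors CHIR99021 and PD0325901. A vehicle control and untagged cells given the compound are not among the groups, so effects of the compound and of eRF1 loss cannot be told apart.

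eRF1, encoded by Etf1, recognises the stop codon and releases the finished protein together with the GTPase eRF3. ABCE1 then splits the ribosome for reuse, and ribosomes that are not released are handled by rescue factors such as Pelota. Stalled or colliding ribosomes can activate the kinase GCN2, which phosphorylates the initiation factor eIF2. That lowers initiation on most mRNAs and raises it on a few with short upstream open reading frames (uORFs), of which Atf4 is the best known. A footprint count records ribosomes present on a gene, whether they move or stand still, so a TE change here is a change in ribosome load per mRNA and not in protein made. All values are also relative: counts were scaled within each assay, and a change common to all mRNAs is not seen.

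A total of 20134 genes were matched between the footprint and RNA tables, and 12887 had enough counts to be tested. Footprint libraries held 7874804 to 19691716 counts, the lowest being treated replicate A, and RNA libraries 17462458 to 24256097. Footprint replicates differed more than RNA replicates. Over the 8554 genes with a mean of at least 3 log2 CPM (read counts scaled to a common library total), the SD of the log2 ratio between replicates was 0.294 and 0.308 for untreated and treated footprints, against 0.133 and 0.122 for RNA. Embryonic stem cell markers were abundant in each library, with a summed level of 8950 to 9700 CPM in footprints and 5730 to 5860 CPM in RNA. The summed level of 7 fibroblast markers was at most 9.37 CPM, with Postn at 0 in each library. The degron acts on the eRF1 protein, so counts of Etf1 do not check the depletion.

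The TE of 101 genes rose and that of 89 fell at an adjusted p under 0.05 (edgeR quasi-likelihood test of the interaction between assay and treatment, Benjamini-Hochberg adjustment over all genes). Together they are 190 of 12887, or 1.47%; the rises are 0.784% and the falls 0.691% of the genes tested. Rises had a median of 0.87 log2 units and reached 1.87, and falls had a median of -0.84 and reached -1.75. More than 2-fold changes were seen for 30 of the risers and 23 of the fallers. The median over all genes was 0.00 (-0.00253), with a middle range of -0.23 to 0.24.

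The number of calls depended strongly on single libraries. The fit shared 1 dispersion per gene between 2 assays whose replicates differ in spread (common coefficient of variation 0.0968). When any 1 RNA library was left out, 0 genes passed in edgeR, with 1191 to 1284 genes at an unadjusted p under 0.05 against 1836 in the full fit; limma voom passed 40 to 91 genes in those 4 fits. With the dispersion taken from footprints alone 58 genes passed, and with limma voom weighting the assays separately 288. Without untreated footprint replicate B the count was 671. The direction of all 190 genes was the same in each of the 8 fits with 1 library left out. All 101 risers and 89 fallers also had the same sign in all 16 combinations of 1 library per group. A kept direction was thus largely given beforehand and is no separate support for the calls.

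Nearly all of the TE change of the called genes lay in footprints. Between the quartiles, footprint changes of all tested genes spanned 0.435 log2 units and RNA changes 0.141. Among the 101 risers the RNA change had a median of 0.01 and lay between -0.21 and 0.29, and 99 of them were within 0.2 of zero. All 89 fallers had an RNA change within 0.2 of zero. Over the 8554 genes with a mean of at least 3 log2 CPM, RNA changes had an SD of 0.0978. Flat RNA was thus not particular to the called genes. The median footprint CPM per RNA CPM of the risers went from 0.386 to 0.704, and that of the fallers from 0.477 to 0.255. Both sets were chosen by this change in the same libraries, so the direction of these shifts was given by the choice. The median over the 8554 better-covered genes was 0.658 in untreated cells, so both sets had started below it.

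**Figure D1:**
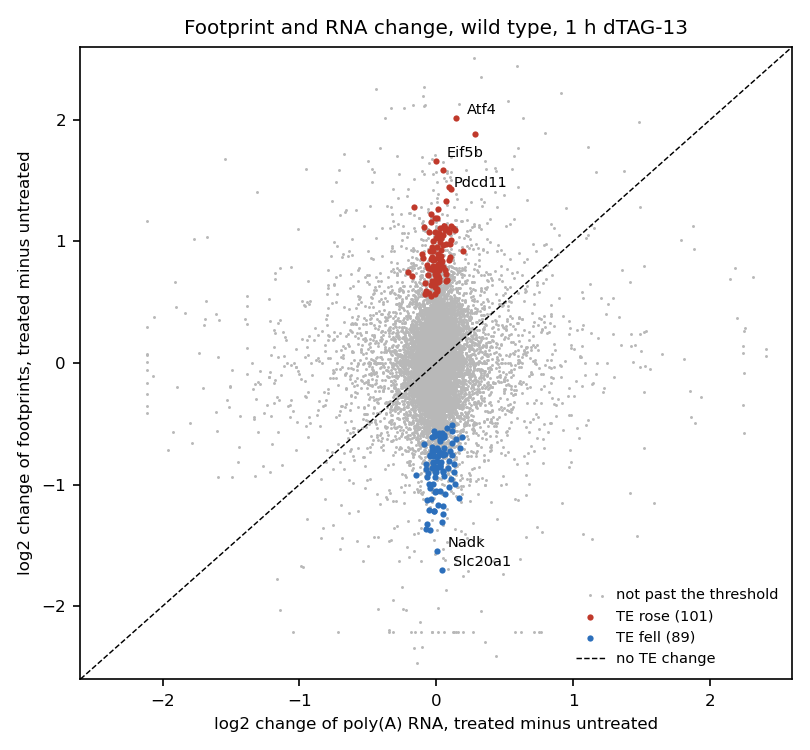
Log2 change of poly(A) RNA (horizontal) against log2 change of footprints (vertical), treated minus untreated, 1 point per gene; red points mark the 101 genes whose TE rose, blue points the 89 whose TE fell, and the dashed line no TE change. The called genes form a vertical band within about 0.3 of zero RNA change; 95 genes, 0 of them called, lie outside the axes.

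Atf4, the transcription factor at the centre of the stress response, rose most. Its gene lies on chromosome 15 from 80255184 to 80257545 in the GRCm38 build. It had 82.2 and 71.3 footprint CPM in untreated replicates A and B, and 364 and 257 in treated ones. Atf4 RNA was at 330 and 297 CPM untreated and at 346 and 347 treated. Treated footprints thus lay well above untreated ones with no overlap, and RNA differed by 0.14 log2 units. The TE change was 1.87 log2 units (SE 0.21, adjusted p = 0.00602), a 3.65-fold rise.

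Another large rise was that of Eif5b, the GTPase that joins the ribosomal subunits at the start codon (chromosome 1, 37998010 to 38055579). Its footprints were at 28.5 and 39.9 CPM untreated and 113 and 104 treated, and its RNA at 360 and 334 untreated and 337 and 356 treated. The groups were apart in footprints and overlapped in RNA. TE changed by 1.66 (SE 0.19, adjusted p = 0.00602). Another initiation gene with a large rise, Eif4g1, encodes the scaffold that joins the cap-binding complex to the small subunit (chromosome 16, 20672720 to 20692883). It went from 244 and 341 to 638 and 697 footprint CPM, with RNA between 1882 and 1932 CPM in all 4 libraries. Its TE change was 1.20 (SE 0.20, adjusted p = 0.0216). Eif3a, the largest subunit of the eIF3 complex, went from 458 and 534 to 931 and 916 footprint CPM on a flat RNA level of 1002 to 1032, a TE change of 0.89.

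Some called genes have near-identical copies, and the sources used here do not give how reads matching several places were counted. Values of Thoc2l (1.27), a copy of the mRNA export gene Thoc2 (0.84), of Utp14b (0.90) and of Ddx3y (0.74) are uncertain for that reason. Thoc2l went from 5.51 and 4.56 to 13.8 and 10.4 footprint CPM, and Thoc2l RNA was at 30.7 to 34.3 CPM in the 4 libraries.

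Ckap5, a microtubule polymerase, went from 73.9 and 102 to 238 and 242 footprint CPM (TE change 1.36, SE 0.18). Tln1, which links integrins to actin, went from 114 and 167 to 401 and 358 (TE change 1.32, SE 0.22). Knl1, a kinetochore scaffold, went from 29.3 and 21.6 to 69.4 and 59.4 (TE change 1.26, SE 0.20). Adjusted p-values of the 3 genes were 0.01, 0.0216 and 0.0209, and in each case the treated libraries lay above the untreated ones. Vinculin (Vcl, 1.03), the dynein heavy chain Dync1h1 (0.99), the clathrin heavy chain Cltc (0.91), the cohesin subunit Smc1a (1.03) and the spindle protein Aspm (1.01) rose as well; these 5 were chosen after their values were seen.

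Son, a splicing cofactor of nuclear speckles, went from 150 and 133 to 414 and 271 footprint CPM on an RNA level of 418 to 451 (TE change 1.26, adjusted p = 0.0328). Without treated footprint replicate A its change was 0.92. Larp4, which binds poly(A) tails, went from 59.1 and 64.1 to 146 and 130 footprint CPM, with RNA at 192 to 204 CPM in the 4 libraries. Its change of 1.20 had the smallest error among the 11 largest rises described here (SE 0.13, adjusted p = 0.00602). Among other called genes, picked after their values were seen, were the splicing proteins Srrm2 (1.09), Srrm1 (0.85) and Sf3b1 (0.74), the nuclear matrix protein Matr3 (1.19), the helicase Dhx9 (0.99), and the 5′ to 3′ exonucleases Xrn1 (0.90) and Xrn2 (0.59).

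Slc20a1, a sodium-coupled phosphate importer, fell most (chromosome 2, 129198773 to 129211615). It had 119 and 150 footprint CPM in untreated and 45.4 and 37.7 in treated cells, with RNA at 175 and 172 CPM untreated and 182 and 176 treated. Every treated footprint value was well below both untreated ones, and the RNA change was 0.04 log2 units. TE changed by -1.75 (SE 0.18, adjusted p = 0.00602), a 3.37-fold fall. Nadk, the kinase that makes NADP from NAD, went from 26.7 and 28.1 to 10.4 and 8.65 footprint CPM, with RNA at 230 to 247 CPM. Its TE change was -1.55 (SE 0.15, adjusted p = 0.00602).

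Sh3bp4, an endocytic adaptor, went from 60.9 and 68.5 to 27.3 and 25.3 footprint CPM (TE change -1.34, SE 0.15). Prkcz, the atypical protein kinase C zeta, went from 10.7 and 13.6 to 4.55 and 4.76 (TE change -1.33, SE 0.24). Csnk1g1, a casein kinase 1, went from 11.2 and 10.2 to 5.08 and 4.54 (TE change -1.22, SE 0.18). The treated values of these 3 genes were less than 0.5 times the untreated mean, on RNA that changed by -0.04 to 0.05. Ripk2, the kinase downstream of NOD receptors, went from 7.73 and 6.64 to 2.94 and 2.81 footprint CPM (TE change -1.26).

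Agpat3, an acyltransferase of phospholipid synthesis, went from 30.2 and 25.5 to 11.1 and 12.3 footprint CPM (TE change -1.29, SE 0.18, adjusted p = 0.0131). Zdhhc16, a protein palmitoyltransferase, had 17.8 and 18.1 CPM untreated and 8.16 and 7.85 treated, with RNA between 39.2 and 40.0 in all 4 libraries, and a TE change of -1.18 (SE 0.16, adjusted p = 0.0103). Ivns1abp, a Kelch-repeat protein, went from 27.7 and 32.3 to 14.1 and 12.03 (TE change -1.20), and Sec14l1, a lipid-binding protein, from 62.2 and 64.9 to 30.0 and 25.3 (TE change -1.20). The tubulin ligase gene Ttll1 changed by -1.27 and Cfap20dc by -1.30, from 5.61 and 6.30 to 2.68 and 2.81 and from 16.98 and 23.0 to 6.56 and 8.57 footprint CPM. The other falls, picked after their values were seen, included the kinases Akt2 (-1.06), Araf (-0.97), Rock2 (-0.81) and Ptk2 (-0.79), the ubiquitin ligases Smurf2 (-0.77), Arih2 (-0.64) and Rnf216 (-0.61), and the mitochondrial dynamics genes Mfn2 (-0.90) and Mff (-0.85).

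**Figure D2:**
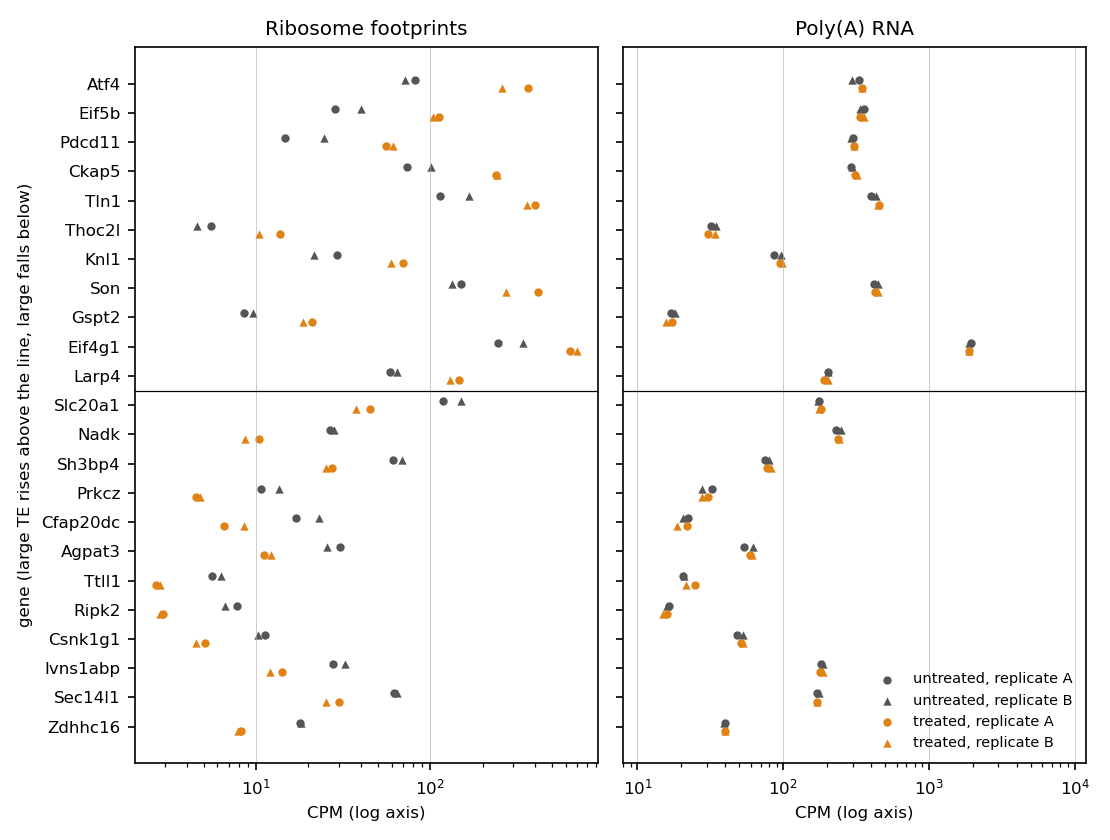
CPM per library (log axes) for 11 of the largest rises, above the line, and the 12 largest falls, below it, in footprints (left) and poly(A) RNA (right); grey marks untreated and orange treated cells, circles replicate A and triangles replicate B. Treated and untreated footprints were apart for each of these genes, for Atf4 at 257 to 364 against 71.3 to 82.2, while RNA points of 1 gene lay close together.

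Gene span was looked at as a property that the test did not use. In the RefSeq table of GRCm38 the median gene span, introns included, was 41.8 kb for the 101 risers and 51.2 kb for the 89 fallers, against 23.2 kb over 12830 of the tested genes. The fallers had a lower mean level over the 8 libraries, with a median of 5.95 log2 CPM against 7.09 for the risers. A gene with more reads passes a test more easily, and the part of read number in these differences was not tested.

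Of 17 stress mRNAs controlled by uORFs, 1 rose and 0 fell, with a median of 0.38 and 12 of 17 above zero; over all genes 0.784% rose and 0.691% fell. Of the 17, 10 had an unadjusted p under 0.05 (1836 of all 12887 genes). DESeq2 called 5 of them (435 of all genes) and limma voom 2 (288 of all genes). The median lay between 0.32, without treated footprint replicate A, and 0.64, without treated footprint replicate B. Atf4 was the 1 that passed, and values of other members were large with larger errors. Ddit3, which encodes the stress factor CHOP, had 1.62 and 0.506 footprint CPM untreated and 8.43 and 3.46 treated, against 5.93 to 7.81 RNA CPM. The TE change of Ddit3 was 2.02 with an SE of 0.63 (adjusted p = 0.155), and between 1.34 and 3.08 with 1 library left out. Its footprint counts were low, and replicate A lay above replicate B in both groups. With the replicate letter added to the fit within each assay the change was 2.16. Ppp1r15a, which encodes the eIF2 phosphatase subunit GADD34, went from 7.43 and 8.21 to 16.9 and 12.3 footprint CPM, without overlap (TE change 0.85, adjusted p = 0.0773). Slc35a4 and Ifrd1, both with known uORFs, had changes of 1.16 (adjusted p = 0.0587) and 1.01 (adjusted p = 0.0635).

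Pnrc2, a partner of the decapping enzyme, went from 5.26 and 4.11 to 16.9 and 8.93 footprint CPM (TE change 1.38, SE 0.32, adjusted p = 0.0669). DESeq2 called both Pnrc2 (adjusted p = 0.000671) and Ppp1r15a (adjusted p = 0.0231). Eprs (0.53), Eif5 (0.38), Azin1 (0.32) and Slc7a1 (0.17) were above zero and Ppp1r15b (-0.32) and Ibtk (-0.17) below it, none past the threshold. Amd1 had at most 0.225 footprint CPM beside 65.4 to 86.4 RNA CPM, so its value of -1.78 rests on very few reads. It has a near-identical copy, Amd2.

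Genes that ATF4 is known to switch on were counted as a list. Of 37 target genes tested, 0 rose and 0 fell (edgeR; 3 at an unadjusted p under 0.05, 1 called by DESeq2 and 0 by limma voom), and the median was 0.07 with 22 above zero. Over all genes 0.784% rose and 0.691% fell. Of all 12887 genes, 1836 had an unadjusted p under 0.05, DESeq2 called 435 and limma voom 288. Asns, asparagine synthetase, changed by 0.23 (adjusted p = 0.725), Phgdh by 0.12 and Psat1 by 0.13. The median was -0.22 without treated footprint replicate A and 0.27 without untreated footprint replicate A. Several targets differed by replicate letter whatever the treatment. Pycr1 had 119 and 50.1 footprint CPM in untreated replicates A and B, and 114 and 47.0 in treated ones. Slc38a2 was lower in A, at 209 and 355 untreated and 238 and 319 treated. Letters were not paired in the fit, so this difference entered the error, with an SE of 0.62 for Pycr1 and 0.35 for Psat1. The 0 calls thus do not show that the targets were unchanged. Leaving out 1 footprint library thus mixes replicate with treatment, and these 2 values do not settle the sign of the median.

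The 16 genes that act in termination and recycling had 2 rises and 1 fall, with a median of 0.04 over all 16 and also over 14 without Eif3j1 and Eif3j2, which had 0 footprints in the 4 libraries and so no TE to compare. Over all genes 0.784% rose and 0.691% fell. Etf1, the gene of the tagged factor, had 200 and 186 footprint CPM untreated and 213 and 216 treated, on RNA of 451 to 460 CPM. Its TE change was 0.15 (SE 0.12, adjusted p = 0.624). Gspt1, which encodes the eRF3 partner of eRF1, went from 125 and 160 to 256 and 240 footprint CPM with RNA at 415 to 438 (TE change 0.79, SE 0.16, adjusted p = 0.0448). Its intronless copy Gspt2 on the X chromosome went from 8.49 and 9.56 to 20.9 and 18.6 on RNA of 15.7 to 18.04 CPM (TE change 1.21, SE 0.20, adjusted p = 0.0216). Reads that fit both copies could have been split between them.

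Eif2d, a factor that frees post-termination small subunits, moved the other way. It went from 69.1 and 84.4 to 34.5 and 39.2 footprint CPM, with RNA between 143 and 152 CPM, and its TE fell by 1.07 (SE 0.16, adjusted p = 0.0171). Abce1, the ATPase that splits terminated ribosomes, had 681 and 632 footprint CPM untreated and 707 and 733 treated (TE change 0.14, SE 0.12, adjusted p = 0.695).

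Among 28 ribosome rescue and quality control genes, 3 rose and 1 fell, against 0.784% and 0.691% of all genes, with a median of 0.08, between 0.04 and 0.15 with 1 library left out. Gigyf2, which represses initiation on stalled mRNAs, went from 34.4 and 51.0 to 91.7 and 87.9 footprint CPM (TE change 1.05). Nemf, which marks stalled nascent chains on the large subunit, went from 44.7 and 43.9 to 70.7 and 70.3 (TE change 0.66), and G3bp1, a stress granule protein, from 343 and 370 to 570 and 518 (TE change 0.61). Rnf14, a ubiquitin ligase linked to trapped translation factors, fell from 35.0 and 35.4 to 24.4 and 21.97 (TE change -0.67). Adjusted p-values of these 4 lay between 0.0328 and 0.0498. With the dispersion from footprints alone (likelihood ratio test) they lay between 0.0732 and 0.359. Pelo, the eRF1-like rescue factor, changed by 0.23 (adjusted p = 0.549), and Hbs1l, its GTPase partner, by -0.59 (adjusted p = 0.0635).

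Of 36 ribosome assembly factors tested, 6 rose and 0 fell, 33 were above zero, and the median was 0.33, between 0.28 and 0.38 with 1 library left out; over all genes 0.784% rose. Pdcd11, needed for small subunit rRNA processing, went from 14.7 and 24.5 to 56.1 and 61.1 footprint CPM with RNA between 294 and 308 (TE change 1.54, SE 0.245, adjusted p = 0.0216). Mdn1, the giant AAA ATPase that strips factors from pre-60S particles, went from 93.3 and 123 to 232 and 240 (TE change 1.02). Ncl, nucleolin, went from 993 and 1218 to 1980 and 1999 footprint CPM on RNA of 2819 to 3087 (TE change 0.87, adjusted p = 0.0317). Utp20 (0.75), the helicases Ddx21 (0.79) and Ddx18 (0.63) completed the 6.

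Initiation and elongation factors had 3 rises and 0 falls among 43, the 3 being Eif5b, Eif4g1 and Eif3a, where 0.784% of all genes rose. Their median was 0.11, and between 0.11 and 0.20 with 1 library left out. Eif3c (0.63, adjusted p = 0.0571) and Eif4g3 (0.84, adjusted p = 0.125) came next. Of 20 cytosolic aminoacyl-tRNA synthetases, which charge tRNAs with amino acids, 19 were above zero with a median of 0.27, which stayed between 0.20 and 0.40 with 1 library left out. The threonyl enzyme Tars was the 1 that passed, where 0.784% of all genes rose. Tars went from 61.7 and 58.3 to 103 and 92.9 footprint CPM (TE change 0.68, adjusted p = 0.0312). Lars had a larger change with a larger error (1.11, adjusted p = 0.0774).

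Medians of housekeeping gene lists lay close to zero. Of 34 proteasome subunits, 75 respiratory chain subunits, 78 mitochondrial ribosomal proteins and 18 glycolytic enzymes, 0 rose and 0 fell, where 1.47% of all genes were called. Their medians were 0.03, -0.01, -0.09 and -0.07. The same count of 0 held for 17 ER chaperone and unfolded protein response genes (0.13), 22 selenoproteins (0.06), whose mRNAs decode a stop codon as selenocysteine, 12 antizyme and polyamine genes (0.09, or 0.07 without 1 that had 0 footprints), 18 nonsense-mediated decay factors (0.08), 13 transcripts sensitive to that decay (0.21), 22 other TOP mRNAs (0.11) and 9 replacement histones (-0.07). Over the 16 lists of at least 4 tested genes in which edgeR called 0, 523 genes in all, 62 had an unadjusted p under 0.05, DESeq2 called 10 and limma voom 5. Of the 78 mitochondrial ribosomal proteins, 55 were below zero. An unadjusted p under 0.05 was found for 11 of them, 8 down and 3 up, and DESeq2 and limma voom called 2 each. Over all 12887 genes tested, 1836 had such a p, DESeq2 called 435 and limma voom 288. The 11 are thus near the share over all genes. Oaz1, the antizyme made through a frameshift over a stop codon, went from 199 and 182 to 276 and 257 footprint CPM (TE change 0.47, SE 0.13, adjusted p = 0.112). Of 21 naive pluripotency factors, 1 rose, Dppa2, where 0.784% of all genes did. Dppa2 went from 96.8 and 93.6 to 146 and 133 footprint CPM (TE change 0.58).

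For the 14 p53 target genes tested 0 passed in edgeR, where 1.47% of all genes did. There was 1 at an unadjusted p under 0.05 (1836 of all 12887 genes). DESeq2 and limma voom called 1 each (435 and 288 of all genes). Of the 14, 12 were below zero, with a median of -0.26. That median was -0.60 without treated footprint replicate A and 0.14 without untreated footprint replicate A. Several members were higher in replicate A than in replicate B whatever the treatment. Cdkn1a, the cell cycle inhibitor p21, was at 298 and 171 footprint CPM untreated and 285 and 153 treated. Letters were not paired in the fit, so this difference entered the error. The 0 calls thus do not show that the p53 targets were unchanged.

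**Figure D3:**
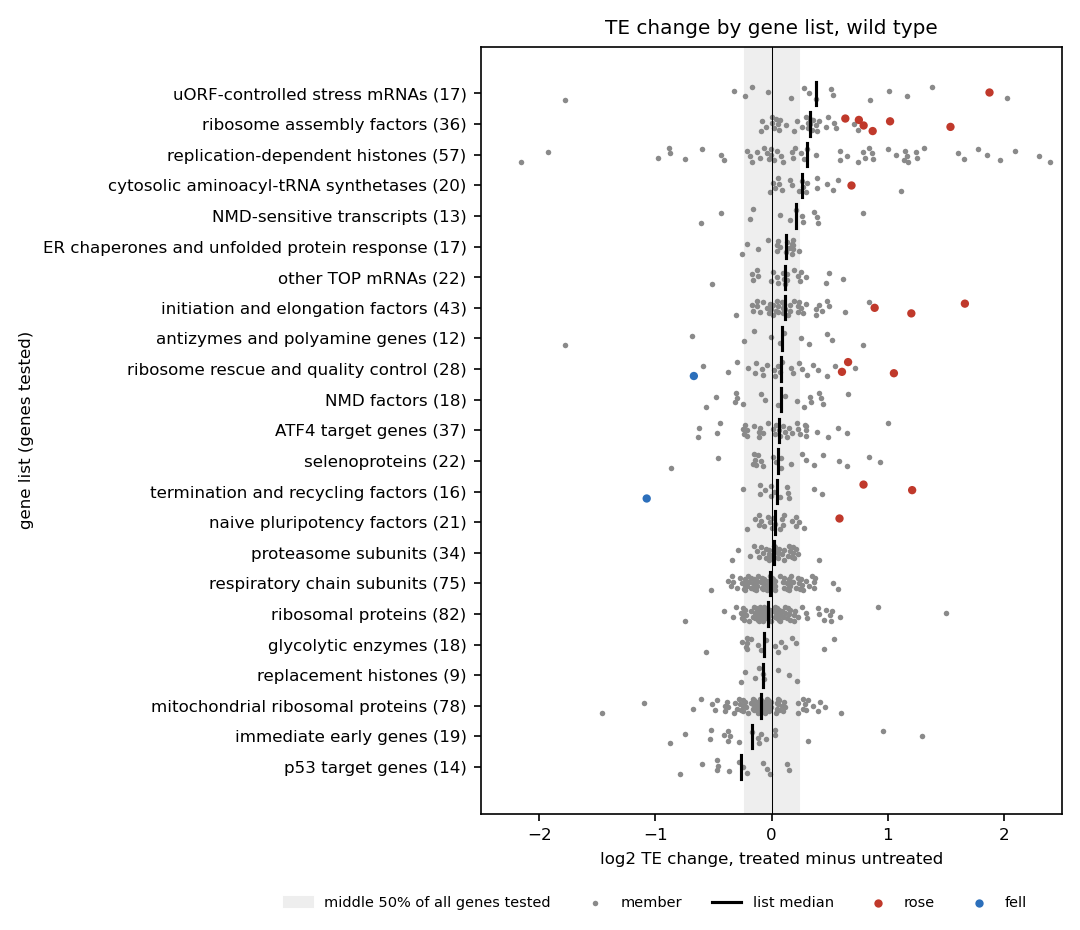
Log2 TE change, treated minus untreated, of each tested member of the gene lists (1 row per list, number tested in brackets); grey points are members, red and blue points those that rose or fell, black bars list medians and the shaded band the middle 50% of all genes. Medians lay between -0.26 for p53 targets and 0.38 for uORF-controlled mRNAs, and 1 histone lies outside the axis.

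Immediate early genes, which cells transcribe within minutes of a stimulus, had higher medians in RNA than in footprints. Of 19 tested, 0 rose and 0 fell in edgeR, where 1.47% of all genes were called. Of the 19, 5 had an unadjusted p under 0.05 (1836 of all 12887 genes). DESeq2 called 2 of the 19 (435 of all genes) and limma voom 0 (288 of all genes). Below zero were 14, with medians of -0.17 for TE, 0.05 for footprints and 0.22 for RNA. Ccn2 RNA went from 31.0 and 29.2 to 50.5 and 57.4 CPM, while its footprints were at 38.3 and 53.6 untreated and 40.5 and 48.3 treated (TE change -0.88, adjusted p = 0.0864). Junb RNA went from 25.9 and 28.6 to 42.8 and 42.4 CPM, and its footprints from 17.6 and 21.6 to 27.8 and 20.03, so that footprints overlapped and RNA did not (TE change -0.37, adjusted p = 0.511). Myc, a growth-promoting transcription factor, had a value above zero, from 3.03 and 4.05 to 8.43 and 8.79 footprint CPM and from 44.7 and 49.4 to 58.9 and 59.8 RNA CPM (TE change 0.96, SE 0.21, adjusted p = 0.054).

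Some genes had far more footprints than RNA, and for those with few RNA reads the TE value rests on these few. Footprint CPM exceeded RNA CPM more than 10-fold in untreated cells for 205 of the 8554 better-covered genes. They included 45 of the 77 ribosomal proteins and all 27 replication-dependent histones among those 8554; histone mRNAs lack a poly(A) tail, and both families have many near-identical copies. Pou5f1, the pluripotency factor OCT4, had 1060 to 1370 footprint CPM but 5.53 to 7.76 RNA CPM. Of the ribosomal proteins 0 rose and 0 fell in edgeR, where 1.47% of all genes were called. Of these proteins, 4 had an unadjusted p under 0.05 (1836 of all 12887 genes). DESeq2 or limma voom called 0 of these proteins (435 and 288 of all genes). They had a median of -0.03, or -0.04 without 3 members that had 0 footprints in all 4 libraries. The 57 histones tested had a median TE change of 0.30, which was 0.13 without treated footprint replicate A and 0.71 without treated RNA replicate B. In edgeR 0 were called, against 1.47% of all genes, with 5 at an unadjusted p under 0.05, 2 called by DESeq2 and 0 by limma voom. Their footprints had a median change of 0.66 and their RNA one of 0.17. Of the 190 called genes, 1 had such a ratio, Hnrnpu (0.68), which encodes an RNA-binding nuclear scaffold protein.

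Markers of other cell types were low. The summed level of 6 primed or early differentiation markers was 53.7 to 60.9 footprint CPM untreated and 78.6 to 83.2 treated, with RNA at 83.0 to 93.0 CPM. Most of that was Nes, an intermediate filament protein whose TE rose (0.87, adjusted p = 0.0216), from 37.5 and 36.4 to 68.6 and 60.7 footprint CPM on RNA of 64.2 to 70.6; Fgf5 was at 0 throughout. The sum of 7 primitive endoderm markers was 96.5 to 108 footprint CPM untreated and 136 to 150 treated, most of it the laminin Lama1, with RNA at 116 to 123. The part of these markers in the TE changes was not tested. In bulk samples, fewer cells of a type and less RNA per cell cannot be told apart.

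The footprint libraries of Gcn2 knockout cells share no library with the wild-type values. They gave a separate reading of footprints, though not of TE, since the series holds no RNA libraries of knockout cells. All 101 risers and all 89 fallers could be tested there. Of the risers, 99 had a footprint change above zero, 44 rose and 0 fell, with a median of 0.41; over the 11798 genes tested in knockout footprints 5.88% rose. Of the fallers, 87 were below zero, 81 fell and 0 rose, with a median of -0.89; over all genes 9.93% fell. Gprasp1 and Utp14b were the risers below zero (-0.01 and -0.07), and Adipor1 and Rbpms2 the fallers above it (0.08 and 0.01).

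Slc20a1 went from 126 and 121 to 22.02 and 29.2 footprint CPM in knockout cells (log2 change -2.26, adjusted p = 2e-05), and Sh3bp4 from 49.3 and 59.6 to 14.1 and 14.7 (-1.91, adjusted p = 3.1e-05). Eif2d fell by 1.09 (adjusted p = 0.000229). Pnrc2, whose wild-type TE change had an adjusted p of 0.0669, went from 3.33 and 2.78 to 15.5 and 16.6 footprint CPM (2.39, adjusted p = 3.2e-05).

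Atf4 and Eif5b, with wild-type footprint changes of 2.01 for Atf4 and 1.66 for Eif5b, were not called in knockout footprints. Atf4 had 80.2 and 79.5 CPM untreated and 91.2 and 101 treated (0.27, SE 0.10, adjusted p = 0.101), and Eif5b 62.8 and 42.8 untreated and 79.5 and 61.5 treated (0.41, SE 0.18, adjusted p = 0.134). Gspt1 changed by 0.26 (adjusted p = 0.16) and Gspt2 by 0.30 (adjusted p = 0.257). Other stress and initiation genes did rise in knockout footprints at an adjusted p under 0.05. They included Ddit3 (1.16), Ppp1r15a (0.81), Oaz1 (0.88), Eif4g1 (0.41) and Eif3a (0.56), while Azin1 (-0.33) was not called. The difference between a wild-type TE change and a knockout footprint change was not tested.

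**Figure D4:**
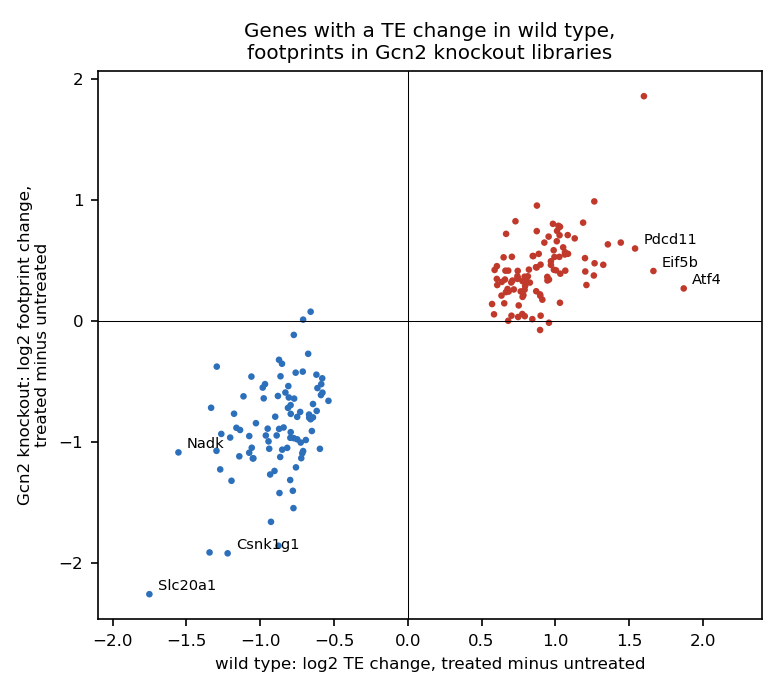
Log2 TE change in wild type (horizontal) against log2 footprint change in Gcn2 knockout libraries (vertical), treated minus untreated, for the 101 genes whose TE rose (red) and the 89 whose TE fell (blue). Slc20a1 lies farthest down at -2.26 in the knockout, and Atf4 at 0.27.

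Among the 36 named genes that passed, 23 passed in each fit without 1 footprint library. Without treated replicate A, 11 did not: Thoc2l (1.07), Prkcz (-1.31), Cfap20dc (-1.15), Ttll1 (-1.25), Ripk2 (-1.29), Gspt1 (0.74), Gigyf2 (1.02), G3bp1 (0.53), Tars (0.61), Dppa2 (0.51) and Ncl (0.87). Without treated replicate B, 5 did not: Prkcz (-1.37), Ttll1 (-1.31), Ripk2 (-1.22), Rnf14 (-0.59) and Utp20 (0.70). Without untreated replicate A, 2 did not: Ripk2 (-1.15) and G3bp1 (0.55). With the dispersion from footprints alone, 21 of the 36 passed. Those that did not were Thoc2l, Cfap20dc, Ttll1, Ripk2, Csnk1g1, Gspt1, Nemf, Gigyf2, Rnf14, G3bp1, Tars, Dppa2, Ncl, Utp20 and Nes. Sizes of the 36 moved by at most 1.37 times in any of the 8 fits with 1 library left out, for Son.

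**Figure D5:**
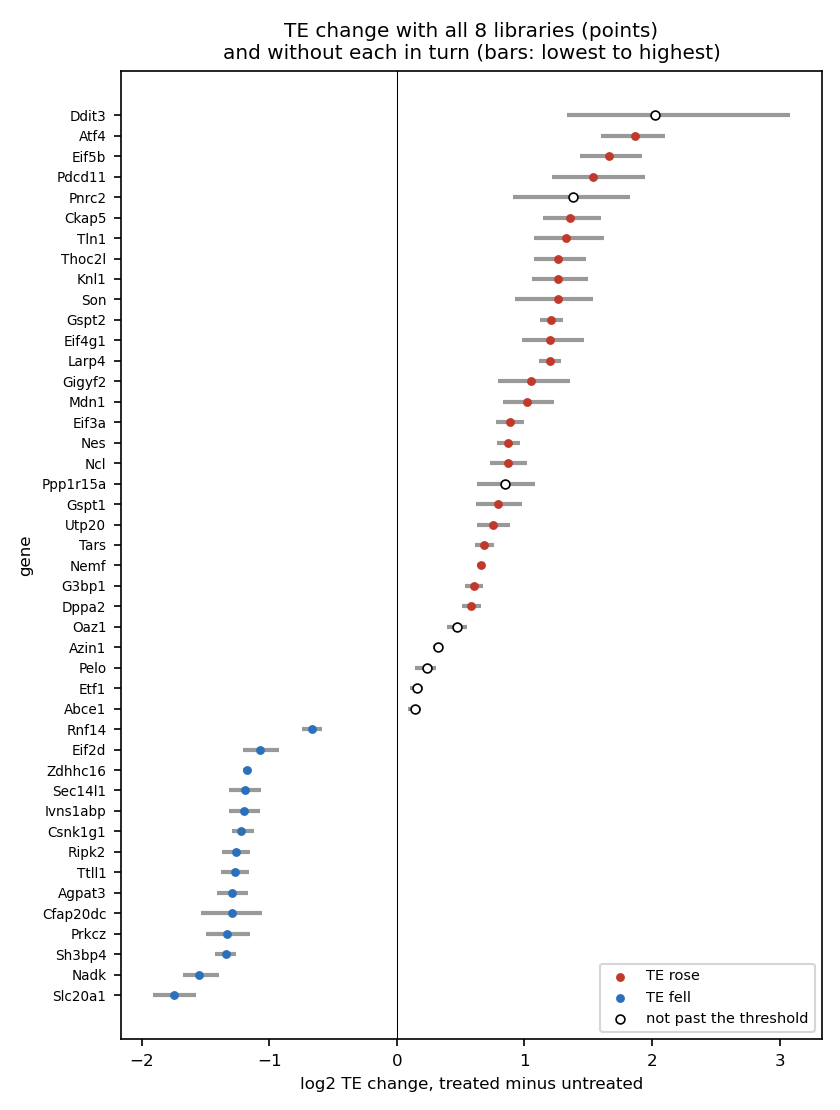
Log2 TE change of the 44 named genes with all 8 libraries (points) and the range over the fits without each library in turn (bars); red and blue points are genes that rose or fell, open points genes not past the threshold. No bar crosses zero, and that of Ddit3 is the widest, from 1.34 to 3.08. The fits reuse the libraries behind the points, so a kept sign was largely given beforehand.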

How the data were processed

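Ribosome footprints (RNase I digestion, sucrose gradient, gel-purified fragments, per the labels) and poly(A) RNA were deposited as raw counts per gene symbol. CASAVA 1.4, HISAT2 2.1.0, cutadapt and the genome build mm10 appear in the submitters' processing notes. Which tool and annotation produced the counts, over which regions, and with what handling of multi-mapping reads is not given in the sources used. Of 22034 footprint symbols, 20050 matched the RNA table as written and 84 by RefSeq synonyms; the 1900 others (8.62%, with 0.44% of wild-type footprint counts) were left out.

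The 8 wild-type libraries were fitted together with edgeR 4.0.16 in R 4.3.3 (filterByExpr at a minimum count of 10, TMM factors within each assay, robust quasi-likelihood dispersions, 4 residual degrees of freedom), and the interaction of assay and treatment was tested, two-sided. The SE is the size of the log2 change over the square root of its F value. CPM are counts scaled by TMM library sizes, as edgeR computes them. The 4 knockout footprint libraries were fitted alone, a check added after the data were seen. The test was run on simulated counts with 1 dispersion per gene for both assays. That run does not cover the difference in spread between the assays, and nothing is concluded from it. Alternatives used DESeq2 1.42.0, limma 3.58.1, other scalings, filters and dispersions, and fits with 1 library left out.

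Named genes are the 12 largest rises and 12 largest falls among called genes with a mean of at least 3 log2 CPM, up to 4 called members per gene list by adjusted p, and a set of translation and stress genes named whatever their result; any others are marked in the text or belong to a list. Results of 3 called genes, 1 of them among the largest rises, are not reported here. One list, mitochondrially encoded mRNAs, had 1 gene tested and is not described. The comparison and the gene lists (24, plus 4 of markers) were chosen with earlier results of these data known. Groups and replicate letters come from the labels, which call the pairs biological replicates without naming separate cultures. The p-values thus measure a spread between these samples, pooled over footprint and RNA libraries. RNA replicates differed less, so printed SE and p-values can be too small for the footprint part. Replicate letters were not used as pairs. Replicates of a group differed by more than counting error (chi-squared per degree of freedom 2.2 to 24.6).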

Additional observations from a re-analysis of the deposited data

How the results depend on the processing

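The count of 190 genes was within 1.5 times under other scalings (172 to 191), other filters (185 and 253), exact symbol matches (188) and with the knockout footprint libraries added (282). It was 435 with DESeq2, 288 with limma voom and a variance weight per assay, and 58 with the dispersion from footprints alone, which shared 189, 176 and 55 genes with the 190. With 1 library left out it ranged from 0 to 671, the zeros being the 4 RNA libraries; in the limma fit, a check added after the data were seen, the range was 40 to 542. With a replicate block within each assay the count was 1561. Replicate letters deviated together between untreated and treated footprints (r = 0.616 over 8554 genes) and not otherwise (-0.0302 to 0.0576), with 2 letters and no shared batch named, so the pairing was not used. None of the 36 called genes of the naming rule changed direction under any alternative run. The alternatives reuse the libraries that gave the calls, so this is no separate support. Medians of the lists kept their sign under each scaling, but those of 11 of 23 lists, ribosomal proteins among them (-0.19 to 0.12), changed sign when 1 library was left out. Of the 8 named genes that were not called, Pnrc2 and Ppp1r15a passed with DESeq2, with the knockout libraries added and without treated footprint replicate B, where Ddit3 passed too (adjusted p = 0.0364). Ppp1r15a also passed without untreated footprint replicate B, and Ddit3, Oaz1, Pnrc2 and Ppp1r15a with the replicate block. Footprints of Ddit3 and Amd1 were few, and the part of depth in their errors was not tested.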
